A study of Mus musculus with 9 samples.

Results

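The 9 genes described here (Trp63, Grhl1, Grhl2, Grhl3, Ovol1, Elf3, Ehf, Esrp1 and Esrp2) are master regulators of epithelial and squamous identity, and they were taken by gene symbol from the deposited gene-level read counts of 4T1 tumors. They were 9 of 22609 listed genes, and all 9 passed the filter on low counts that left 13366 genes for testing. 4T1 is a mouse mammary carcinoma cell line used as a model of triple-negative breast cancer (TNBC). In each group, BALB/c mice were kept on their diet for 6 weeks, 500000 4T1 cells were then placed in the mammary fat pad, and the diets went on to the end. The LFD group received a low fat diet with 10 kcal% fat plus vehicle (hydroxy propyl cellulose), the HFD group a high fat diet with 60 kcal% fat plus the same vehicle, and the HFD+EC359 group the high fat diet plus EC359, an inhibitor of the leukemia inhibitory factor receptor (LIFR), at 5 mg/kg intraperitoneally on 5 days a week. There was no group on the low fat diet with EC359. Each group had 3 RNA-seq libraries, 1 for each of the 9 tumors that the series' design text counts. No label gives the age of the mice or names the mouse of a tumor, so p-values measure the spread between these libraries, which may be technical in part.

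p63, the product of Trp63, is the transcription factor on which stratified epithelia and basal cells of the mammary gland depend. The grainyhead-like factors (Grhl1, Grhl2 and Grhl3) bind genes of cell junctions and of the epidermal barrier, and the zinc finger factor Ovol1 and the ETS factors Elf3 and Ehf act in epithelial differentiation. Esrp1 and Esrp2 are RNA-binding proteins that select epithelial exons, for example in Fgfr2 and Cd44. Several of these factors are known as opponents of the epithelial-mesenchymal transition (EMT), whose own factors of the Zeb and Snail families bind E-boxes and repress epithelial genes. Gene-level counts do not separate the TA and delta-N forms of p63, nor do they show which exons the Esrp proteins selected.

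The start regions of 3 of the 9 genes were matched in the RefSeq promoter table for the mouse build GRCm38.p6, each covering 250 bases before and 50 bases after an annotated start. They are shown because these genes had entries and because the E-box CAGGTG is the sequence that Zeb and Snail factors are known to bind. Capitals mark every match to CAGGTG on either strand (here always read as CACCTG), and each line is written 5′ to 3′ on the strand of the gene.
Grhl1, chr12:24572037-24572336, plus strand: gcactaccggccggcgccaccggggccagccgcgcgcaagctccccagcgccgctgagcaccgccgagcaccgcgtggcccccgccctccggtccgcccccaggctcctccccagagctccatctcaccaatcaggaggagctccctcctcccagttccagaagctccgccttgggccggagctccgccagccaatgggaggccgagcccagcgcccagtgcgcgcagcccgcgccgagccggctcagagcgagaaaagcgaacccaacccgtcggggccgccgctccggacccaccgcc
Grhl3, chr4:135573583-135573882, minus strand: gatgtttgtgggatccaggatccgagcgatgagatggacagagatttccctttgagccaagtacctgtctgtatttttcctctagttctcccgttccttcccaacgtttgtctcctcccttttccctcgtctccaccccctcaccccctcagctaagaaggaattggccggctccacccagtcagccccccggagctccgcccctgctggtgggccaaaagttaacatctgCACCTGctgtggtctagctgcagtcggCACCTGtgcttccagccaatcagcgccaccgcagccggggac
Elf3, chr1:135258423-135258722, minus strand: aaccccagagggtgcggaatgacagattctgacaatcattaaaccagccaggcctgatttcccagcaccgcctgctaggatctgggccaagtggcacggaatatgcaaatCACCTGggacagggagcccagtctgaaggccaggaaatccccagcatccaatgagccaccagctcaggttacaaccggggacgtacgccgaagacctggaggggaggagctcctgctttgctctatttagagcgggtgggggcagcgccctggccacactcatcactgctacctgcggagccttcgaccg
Grhl1 has another listed start at chr12:24580469-24580768 on the plus strand. The first bases of the matches lay 19 bases before and 8 bases after the start in Grhl3, and 140 bases before it in Elf3. Of 32851 promoters in that table, 20.2% held this E-box. Both strands were also searched for AACCGGTT (the grainyhead motif, in 0.146% of promoters), CCGTTA (an OVO motif, 2.76%), TGANTCA (AP-1, 7.81%) and CGGAAGT (ETS, 6.42%), and these letters did not occur in the 4 windows; none of these motifs overlapped an E-box match. Trp63, Grhl2, Ovol1, Ehf, Esrp1 and Esrp2 had no entry.

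In the mm9 build of the deposited counts, Trp63 lies at chr16:25683851-25892174 on the plus strand, Grhl1 at chr12:25257152-25302256 (plus) and Grhl2 at chr15:37162791-37293323 (plus). Grhl3 lies at chr4:135097803-135129535, Ovol1 at chr19:5549137-5560575, Elf3 at chr1:137150151-137155049, Ehf at chr2:103103590-103143353, Esrp1 at chr4:11259185-11313930 and Esrp2 at chr8:108655083-108660874, all on the minus strand. Exonic lengths ran from 2000 bases in Elf3 to 6055 bases in Trp63. No exon of the 9 genes overlapped another listed gene on the same strand, and Esrp2 overlapped 1 antisense gene, 1810019D21Rik, which the strand-aware counting kept apart.

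Library totals ran from 5085357 to 9751201 counts, so that 3 counts, taken as the limit of detection, equalled 0.308 to 0.59 CPM (counts scaled to a common library size); these limits cover counting error only. Values below are CPM scaled by TMM factors. The 9 genes were expressed at low levels, with 2 to 113 counts per library. Summed over the 9 genes, the LFD libraries held 70.5, 68.1 and 70.6 CPM, the HFD libraries 19.3, 16.6 and 18.1 CPM, and the HFD+EC359 libraries 55.2, 53 and 45.4 CPM. The summed level was thus lowest in the 3 HFD libraries, and no library of a group reached the range of another. Replicates lay close together, with a fitted biological coefficient of variation of 3.63%. P-values measure this small spread between libraries, which no label ties to separate mice. Library 1 of the LFD group stood somewhat apart. Its chi-square per gene against the other LFD libraries was 2.54 and 3.1 (counting noise alone gives 1), compared with 1.36 to 1.57 for the other replicate pairs. Without LFD replicate 1, 9 of the 9 genes still fell in HFD (8 past the study's threshold, explained below), and 9 rather than 8 rose with EC359. Of 13515 genes then tested, 6390 changed between diets (702 past that threshold) and 4232 with EC359. The libraries also differed in base composition: genes of low GC content stood relative to genes of high GC content at -0.54 to -0.32 (log2) in LFD, 0.1 to 0.16 in HFD and 0.25 to 0.3 in HFD+EC359.

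**Figure D1:**
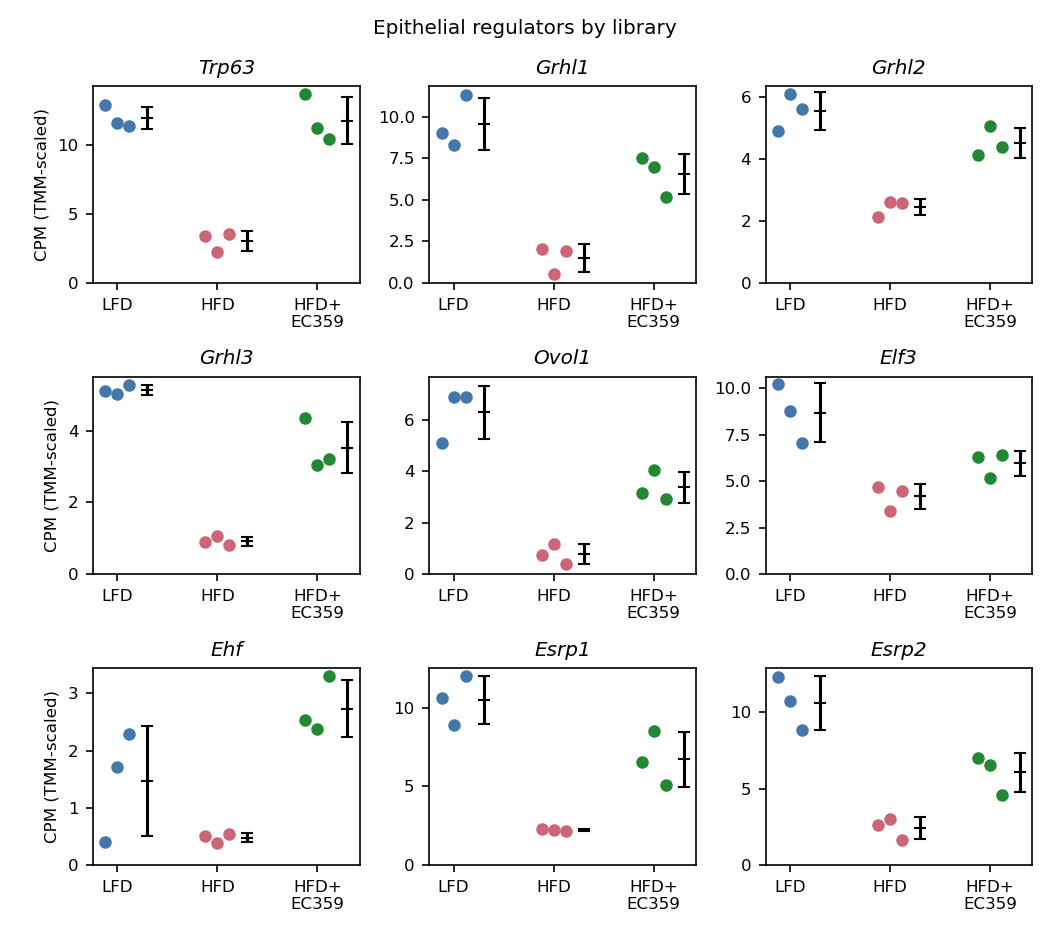
TMM-scaled CPM (y axes, from 0) of each of the 9 regulators in every library of the 3 groups (x axes); points are libraries and the bars beside them give mean ± SD (n = 3). In all panels but Ehf the 3 HFD libraries lie below the 3 LFD libraries, and in every panel they lie below the 3 HFD+EC359 libraries.

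All 9 regulators fell in HFD tumors compared with LFD tumors, by 2.06-fold (Elf3) to 7.95-fold (Ovol1). Genes are said to fall or rise where edgeR's quasi-likelihood fit gave a p under 0.05 after Benjamini-Hochberg adjustment over all tested genes. Of all tested genes, 25.8% fell and 26.0% rose by that rule. By the threshold of the study's methods (a fold over 2 with an adjusted p under 0.01), 8 of the 9 fell, against 2.68% of all genes; Ehf missed it. The median log2 fold change of the 9 was -2.1, against 0.007 over all tested genes. In 8 of the 9 genes every HFD library was below every LFD library, as in 28.6% of all genes. With 3 libraries against 3, the smallest p that exact two-sided permutation allows for any gene is 0.1, so calls rest on the fit across all genes.

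With EC359 on the high fat diet, 8 of the 9 regulators rose compared with HFD alone, by 1.85-fold (Grhl2) to 4.35-fold (Grhl1) in 7 of them and by 5.59-fold in Ehf, while 12.7% of all genes rose and 13.9% fell. Ehf passed the filter on low counts through the HFD+EC359 libraries, so that filter favored its higher level there. By the methods' threshold 7 rose, Ehf among them, against 2.06% of all genes. Grhl2 and Elf3 missed that threshold. The median log2 fold change was 1.92, against 0.006 over all genes, and in all 9 every HFD+EC359 library was above every HFD library, as in 20.6% of genes. This comparison shares the HFD libraries with the one between diets, so that the opposite signs are not independent of each other. In bulk tumor RNA, fewer cells of a type cannot be told apart from less RNA per cell.

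HFD+EC359 tumors did not reach the LFD level for most of the 9 genes. In that comparison 6 were lower (Grhl1, Grhl3, Ovol1, Elf3, Esrp1 and Esrp2), Ehf was higher, and Trp63 and Grhl2 did not pass, beside 29.1% of all genes lower and 29.2% higher. By the methods' threshold 0 of the 9 changed, against 1.43% of all genes lower and 3.66% higher. DESeq2 also gave 0, with 596 of 13365 genes past that threshold. In edgeR 7 of the 9 had an unadjusted p under 0.05. At least the 29.1% and 29.2% of all genes that passed after adjustment met that rule too. The same 6 genes had every HFD+EC359 library below every LFD library (31.1% of all genes), and Ehf had every library above (31.8%). The 7 calls became 4 without LFD replicate 1 or without HFD+EC359 replicate 3. Those fits called 7259 of 13515 and 7088 of 13498 genes. The median log2 difference was -0.55, against 0.011 over all genes. The calls for Ovol1, Esrp1 and Esrp2 held under every alternative in which they were tested, while those for Grhl1, Grhl3, Elf3 and Ehf were each lost without certain libraries, given below. DESeq2 gave 5 calls at an adjusted p under 0.05 rather than 7, without Grhl3 (0.125) and Ehf (0.126). It called 6900 of 13365 genes. Thinning to the smallest library also lost Grhl3 (0.0745) and Ehf (0.179), as did GC and length correction together with Elf3, library totals lost Grhl3 (0.0783), a filter of 1 count lost Grhl3 (0.062), and a fit of the 6 libraries lost Ehf (0.0571).

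**Figure D2:**
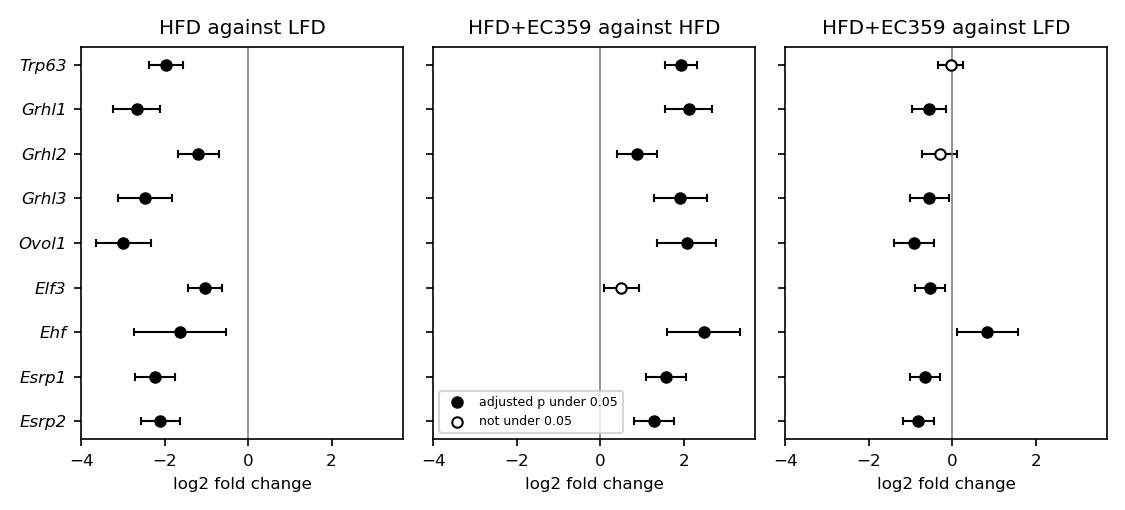
Log2 fold changes (x axes) of the 9 regulators (rows) in the 3 comparisons; points are edgeR estimates, bars are 95% confidence intervals and filled points have an adjusted p under 0.05. All intervals lie below 0 for HFD against LFD and above 0 for HFD+EC359 against HFD, whereas for HFD+EC359 against LFD those of Trp63 and Grhl2 include 0.

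Trp63 had 12.9, 11.6 and 11.4 CPM in the LFD libraries, 3.4, 2.22 and 3.54 CPM in HFD, and 13.7, 11.2 and 10.4 CPM in HFD+EC359. The HFD libraries stood clear of both other groups, and the LFD and HFD+EC359 libraries overlapped. The mean fell from 12 ± 0.785 to 3.05 ± 0.723 CPM (SD, n = 3), a log2 fold change of -1.96 (SE 0.199, edgeR adjusted p = 7.34e-10). With EC359 it rose to 11.7 ± 1.73 CPM, a log2 fold change of 1.93 against HFD (SE 0.185, edgeR adjusted p = 5.46e-10). Against LFD the log2 difference was -0.03 with a 95% interval of -0.33 to 0.27 (edgeR adjusted p = 0.868), and it ranged from -0.3 with the GC and length trend removed (adjusted p = 0.0922) to 0.04 with scaling by library totals, apart from the fits that left out a library. Among the 9, Trp63 was the regulator whose EC359 level lay nearest to that of LFD tumors.

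Of the grainyhead-like factors, Grhl1 had 8.99, 8.31 and 11.3 CPM in LFD, 2.02, 0.523 and 1.91 CPM in HFD and 7.51, 6.99 and 5.19 CPM in HFD+EC359. The 3 groups did not overlap, and the lowest HFD library held 4 counts of it. Grhl1 fell by 2.67 on the log2 scale in HFD (SE 0.28, edgeR adjusted p = 1.49e-09) and rose by 2.12 with EC359 (SE 0.282, edgeR adjusted p = 4.58e-07). It stayed 1.46-fold below LFD (log2 -0.55, edgeR adjusted p = 0.0205), a call that was lost without LFD replicate 3 (adjusted p = 0.143) or HFD+EC359 replicate 3 (0.118).

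Grhl3, the factor of this family best known for closure and barrier of the skin, had 5.11, 5.02 and 5.28 CPM in LFD, 0.882, 1.05 and 0.817 CPM in HFD and 4.36, 3.04 and 3.2 CPM in HFD+EC359. The groups did not overlap, and HFD libraries held 6 to 8 counts. The fall was -2.47 (SE 0.314, edgeR adjusted p = 7.25e-08) and the rise with EC359 1.92 (SE 0.315, edgeR adjusted p = 1.67e-05), both as log2 fold changes. Against LFD it was lower by a log2 difference of -0.55 (edgeR adjusted p = 0.0421), and this was lost without any of the LFD libraries in turn (0.0744, 0.0739 and 0.095) and without HFD+EC359 replicate 2 (0.134) or 3 (0.119).

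Grhl2, which acts in simple epithelia and on E-cadherin, moved less than both relatives by its estimates, a difference that was not tested. Its values were 4.91, 6.12 and 5.63 CPM in LFD, 2.14, 2.62 and 2.59 CPM in HFD and 4.12, 5.07 and 4.39 CPM in HFD+EC359. The HFD libraries were below all others, and LFD and HFD+EC359 overlapped. Grhl2 fell by 1.19 on the log2 scale (SE 0.243, edgeR adjusted p = 0.000116) and rose by 0.89 (SE 0.232, edgeR adjusted p = 0.00403), and its log2 difference from LFD was -0.3 with a 95% interval of -0.73 to 0.12 (edgeR adjusted p = 0.213).

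Ovol1 had the largest fall by its estimate among the 9. It had 5.11, 6.9 and 6.87 CPM in LFD, 0.756, 1.18 and 0.408 CPM in HFD and 3.15, 4.06 and 2.9 CPM in HFD+EC359, with no overlap between groups and as few as 3 counts in an HFD library. The log2 fold change was -2.99 in HFD (95% interval -3.65 to -2.33, edgeR adjusted p = 3.16e-09) and 2.07 with EC359 (1.37 to 2.78, edgeR adjusted p = 2.19e-05). It remained 1.89-fold below LFD (log2 -0.92, edgeR adjusted p = 0.00113). Its relative Ovol2 was near 0, with at most 3 counts in any library.

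The ETS factors differed from each other in their values. Elf3 had 10.2, 8.78 and 7.04 CPM in LFD, 4.66, 3.4 and 4.49 CPM in HFD and 6.3, 5.18 and 6.39 CPM in HFD+EC359, with no overlap between the groups. It fell by 1.04 on the log2 scale in HFD (SE 0.203, edgeR adjusted p = 6.82e-05), just past a fold of 2. The fold was below 2 without LFD replicate 1 (log2 -0.92) or HFD replicate 2 (log2 -0.91). Thinning to the smallest library (log2 -0.96) and GC and length correction (log2 -0.84) also left it below 2. With EC359 the log2 difference was 0.51 (95% interval 0.1 to 0.92, edgeR adjusted p = 0.0575), which did not pass. The adjusted p for it ranged from 0.0422 to 0.528 over the alternatives. It passed without LFD replicate 1 (0.0424) or HFD+EC359 replicate 2 (0.0478), with library totals (0.0422) and in a fit of the 6 libraries (0.0427). Against LFD, Elf3 was lower by a log2 difference of -0.53 (edgeR adjusted p = 0.0139), which was lost without LFD replicate 1 (0.0843) or HFD+EC359 replicate 2 (0.0648).

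Ehf was the scarcest of the 9. It passed the filter on low counts through the HFD+EC359 libraries and was not tested when only the LFD and HFD libraries were fitted. It had 0.409, 1.72 and 2.29 CPM in LFD (2, 11 and 13 counts), 0.504, 0.393 and 0.545 CPM in HFD (4, 3 and 4 counts) and 2.54, 2.37 and 3.3 CPM in HFD+EC359 (21, 21 and 33 counts). LFD replicate 1 lay within the HFD range and below its limit of 3 counts, so LFD and HFD overlapped. The fall in HFD was -1.64 on the log2 scale (95% interval -2.73 to -0.54, edgeR adjusted p = 0.0111) and was lost without LFD replicate 3 (log2 -1.23, adjusted p = 0.109). Without LFD replicate 1 the fall was -2.02 (adjusted p = 0.000969). The rise with EC359 was 2.48 (95% interval 1.6 to 3.36, edgeR adjusted p = 3.96e-05). Ehf was higher than in LFD by 0.84 (edgeR adjusted p = 0.0451), a call that held in 2 of the 9 fits that each left out 1 library, those without LFD replicate 3 or HFD+EC359 replicate 2.

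Among the splicing regulators, Esrp1 had 10.6, 8.94 and 12 CPM in LFD, 2.27, 2.22 and 2.18 CPM in HFD and 6.54, 8.56 and 5.09 CPM in HFD+EC359. Esrp2 had 12.3, 10.7 and 8.8 CPM in LFD, 2.65, 3.01 and 1.63 CPM in HFD and 7.03, 6.54 and 4.59 CPM in HFD+EC359. For both, the groups did not overlap and the order was LFD, HFD+EC359, HFD. Esrp1 fell by 2.22 on the log2 scale (SE 0.234, edgeR adjusted p = 1.46e-09) and rose by 1.58 with EC359 (SE 0.237, edgeR adjusted p = 3.81e-06). Esrp2 fell by 2.1 (SE 0.233, edgeR adjusted p = 4.6e-09) and rose by 1.29 (SE 0.241, edgeR adjusted p = 0.000107). Both stayed below LFD, Esrp1 by 1.56-fold (log2 -0.64, edgeR adjusted p = 0.00292) and Esrp2 by 1.75-fold (log2 -0.81, edgeR adjusted p = 0.000437).

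Levels between the genes were compared per kilobase of exon, as TMM-scaled RPKM computed from the counts. In LFD tumors Elf3 (4.34 ± 0.795) and Esrp2 (3.96 ± 0.648) were highest and overlapped. Esrp1 (2.72), Grhl1 (2.7), Ovol1 (2.17), Trp63 (1.98) and Grhl3 (1.85) followed, each overlapping the next, then Grhl2 (1.12 ± 0.123) and Ehf (0.336 ± 0.22, mean RPKM ± SD, n = 3), each below the range of the gene before it. In HFD tumors the order opened with Elf3 (2.09), Esrp2 (0.909) and Esrp1 (0.575), which did not overlap, and ended with Ovol1 (0.269) and Ehf (0.109). Grhl2 stood in place 5 there (0.495 RPKM), among 6 genes whose ranges overlapped from each to the next. In HFD+EC359 tumors the first 8 genes, from Elf3 (2.98) to Grhl2 (0.915), overlapped from each to the next, with Trp63 (1.94) in place 3, and Ehf (0.624) was below them.

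Over the 36 pairs of the 9 genes, Pearson's r of log2 CPM across the 9 libraries ran from 0.296 to 0.964 with a median of 0.861. These libraries fall into 3 groups that differ in most of these genes. With the group means removed, the median was -0.069 and the range -0.751 to 0.869, so the pairs did not share a common direction among replicates at these counts. The genes most like each regulator were found by the same r over the 9 libraries, which again follows the group means, and genes compared share library and depth. Of 13357 genes compared, from 6 (Ehf) to 113 (Grhl3) had an r over 0.95 with a regulator, and 74 had with Trp63. The 3 named for each are thus the top of longer lists. Anxa8 was nearest to Trp63 (r = 0.993), before Gsdma and Klk6 (both 0.987). Tgm5 (0.993), Lce1a1 and Gsdma were nearest to Grhl1, Ralgds (0.981), Slc34a2 and Trim29 to Grhl2, and Casp14, Casz1 and Mbtps1 (0.991 each) to Grhl3. Fxyd3 (0.982), Nat8l and Tprg were nearest to Ovol1, Lamc3 (0.989), Fgfr1op2 and Ap1m2 to Elf3, and Tln2 (0.977), Atp6v0a4 and Serpinb8 to Ehf. Pla2g4f (0.989), Ltb4r2 and Crabp2 were nearest to Esrp1, and Nccrp1 (0.977), Pou3f1 and Aqp3 to Esrp2. The levels of these neighbours differed widely: Mbtps1 had 313.6, 298.3 and 311.3 mean CPM in LFD, HFD and HFD+EC359, whereas Klk6, a kallikrein protease, had 11.4, 0.526 and 12.3.

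The family relatives of the 9 genes did not move as a group. Counts for this list and those below stand beside the shares of all tested genes. These were 26.0% up and 25.8% down in HFD, and 12.7% up and 13.9% down with EC359. Of 12 relatives (p53, grainyhead, OVO-like and ELF families), 6 were tested; 1 fell in HFD and the other 5 did not pass. With EC359, 0 of the 6 passed in edgeR and 0 in DESeq2, which called 2528 of 13365 genes. In edgeR 3 of the 6 had an unadjusted p under 0.05. At least the 12.7% and 13.9% of all genes that passed after adjustment met that rule too. The gene that fell was Trp73, which encodes the p53-family factor p73, at a log2 fold change of -3.1 (SE 0.714, edgeR adjusted p = 0.000492) on at most 20 counts; with EC359 its log2 difference was 1.82 (adjusted p = 0.0964). Trp53 itself stood at 64.7, 62.2 and 64.2 mean CPM in LFD, HFD and HFD+EC359. The ETS relatives Elf1 and Elf4 had log2 differences of 0.1 and 0.08 between diets, which did not pass. The ETS genes Elf5 and Spdef had at most 2 and 8 counts in a library.

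Among 22 other transcription factors of surface epithelia, 12 were tested; 10 fell and 1 rose in HFD (median log2 -1.13), and 7 rose and 1 fell with EC359 (median 0.53). Zfp750, an epidermal differentiation factor, fell by 2.62 on the log2 scale in HFD (SE 0.331, edgeR adjusted p = 6.11e-08) and rose by 2.41 with EC359 (SE 0.317, adjusted p = 3.79e-07). Barx2 fell by 2.5 and rose by 1.44, and Pou2f3 rose by 1.86 (SE 0.47, edgeR adjusted p = 0.003). Gata3, the luminal mammary factor, went the other way: it rose by 0.45 in HFD (edgeR adjusted p = 9.47e-11) and fell by 0.13 on the log2 scale with EC359 (0.0131). Klf5 fell by 1.19 in HFD and had a log2 difference of -0.16 with EC359 (adjusted p = 0.234).

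Of 17 textbook targets of p63, 16 were tested; 14 fell and 1 rose in HFD (median log2 -2.56), and 13 rose with EC359 while the other 3 did not pass (median 2.18). Krt14, the basal keratin, had 838.2, 705.9 and 738.5 CPM in LFD, 40.6, 40.3 and 40.8 CPM in HFD and 233.2, 238.9 and 237.6 CPM in HFD+EC359. Its log2 fold change was -4.23 between diets (SE 0.0566, edgeR adjusted p = 1.21e-33) and 2.54 with EC359 (SE 0.0592). Lamb3, a chain of laminin-332 in the basement membrane, fell by 3.32 and rose by 3.26, and Sfn (14-3-3 sigma) fell by 3.22. Dsc3, a desmosomal cadherin, rose by 2.57 with EC359 (SE 0.131, edgeR adjusted p = 5.93e-17). The targets were not uniform against LFD: 7 were lower, 2 higher and 7 did not pass, with Krt14 lower (log2 -1.68) and Lamb3 at a log2 difference of -0.05. Of all genes, 29.1% were lower and 29.2% higher in that comparison.

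Of 12 grainyhead-like targets, 10 were tested, among them Esrp1, which is also 1 of the 9 regulators; 9 fell in HFD (median log2 -2.56) and 9 rose with EC359 (median 1.82). Tgm5, an epidermal transglutaminase, fell by 3.18 (SE 0.482, edgeR adjusted p = 1.55e-06) and rose by 2.58 (SE 0.491). Prom2, a membrane protein of epithelial protrusions, fell by 2.95 and rose by 2.02, and Cldn4, a tight junction claudin, fell by 2.85. Dsg1b, a desmoglein whose close copy Dsg1a can share its reads, rose by 2.38 with EC359 (SE 0.19). The target that did not pass in either comparison was Arhgef19 (log2 0.1 and 0.02). Compared with LFD, 8 of the 10 were lower with EC359 and 2 did not pass, beside 29.1% of all genes lower and 29.2% higher.

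**Figure D3:**
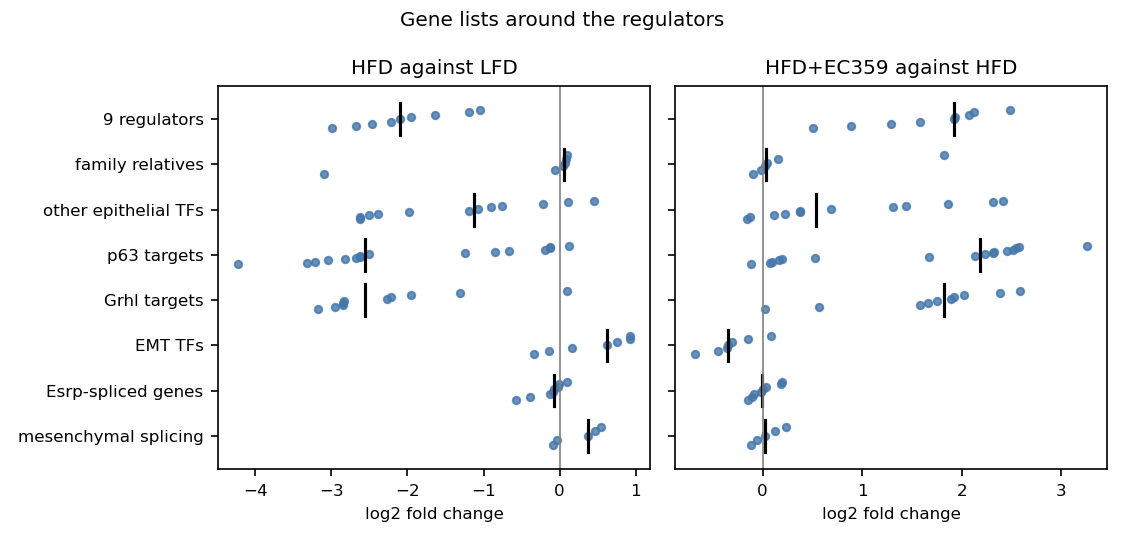
Log2 fold changes (x axes) of the tested genes in 8 lists (rows), for HFD against LFD and HFD+EC359 against HFD; each point is a gene and each black line the median of its list. The 9 regulators, p63 targets and Grhl targets have medians of -2.1, -2.56 and -2.56 between diets and 1.92, 2.18 and 1.82 with EC359, while the EMT factors have 0.62 and -0.35.

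The EMT factors that passed between diets did not share a direction. Of 7 tested, 3 rose in HFD and 1 fell (median log2 0.62), and with EC359 3 fell and the other 4 did not pass (median -0.35). Among all genes 26.0% rose and 25.8% fell in HFD, and 13.9% fell with EC359. Zeb1, a repressor known to bind E-boxes of this kind, had 10, 6.43 and 8.1 CPM in LFD, 15.7, 15.8 and 14 CPM in HFD and 12.8, 9.24 and 11.4 CPM in HFD+EC359; it rose by 0.92 on the log2 scale (SE 0.16, edgeR adjusted p = 1.38e-05) and then had a log2 fold change of -0.45 (SE 0.135, adjusted p = 0.0118). Prrx1, a mesenchymal homeobox factor, rose by 0.75 and fell by 0.68 (edgeR adjusted p = 1.27e-07 and 3.66e-07). Zeb2 rose in HFD by 0.62 and did not pass with EC359 (log2 0.08). Twist1 fell in both comparisons, with log2 fold changes of -0.34 and -0.31. Snai2 (0.93) between diets and Twist2 (-0.36) with EC359 did not pass. Bulk tumor RNA does not show which cells held the transcripts of these factors, and this was not tested.

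Of 8 genes whose exons Esrp proteins are known to select, 3 fell and 5 did not pass in HFD, and 2 rose and 1 fell with EC359. Among all genes 25.8% fell in HFD, and 12.7% rose and 13.9% fell with EC359. Counts of this size in 8 genes lie near those shares. The medians of the 8 genes, -0.08 and -0.01, lay close to 0. The gene-level difference of largest size between diets was that of Scrib (log2 -0.57, SE 0.0444, edgeR adjusted p = 1.74e-12). Enah (-0.39) and Fgfr2 (-0.13) also fell in HFD, and Fgfr2 (0.19) and Cd44 (0.18) rose with EC359. Of 5 splicing factors of mesenchymal exon choice, 3 rose in HFD and 1 fell (26.0% and 25.8% of all genes). Mbnl2 rose by 0.55, Mbnl1 by 0.46 and Qk by 0.38. With EC359 Mbnl1 rose by 0.23 and Ptbp1 had a log2 fold change of -0.12 (edgeR adjusted p = 0.0105).

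Markers of several cell types moved with the same groups. The shares of all genes were again 26.0% up and 25.8% down in HFD, and 12.7% up and 13.9% down with EC359. The carcinoma markers Krt8 and Krt18 were present throughout, at 598.7, 408 and 442 mean CPM for Krt8 and 485.5, 292.5 and 303.9 for Krt18 in LFD, HFD and HFD+EC359, and Spint2 had 319.9, 181.8 and 178.5, whereas Krt7, Krt19 and Cldn7 had at most 9, 15 and 2 counts in any library. Of 9 tested simple epithelial markers, 9 fell in HFD and 7 rose with EC359, and the list summed to 1487 to 1519, 915 to 919.2 and 979.4 to 1012 CPM in the 3 groups. Krt8 fell by 0.55 on the log2 scale and Krt18 by 0.73 in HFD, and with EC359 Krt8 rose by 0.12 while Krt18 did not pass (log2 0.06). Basal mammary markers (8 genes, 6 tested) had 3 up and 3 down in both comparisons, with the keratins Krt14, Krt5 and Krt17 down in HFD and up with EC359 and the smooth muscle genes Acta2, Myh11 and Mylk the other way; their sums were 1157 to 1314, 179.3 to 192.1 and 552.7 to 563.8 CPM. The luminal and milk list had 10 genes, of which 3 were tested (Kit, Areg and Esr1; 2 up and 1 down in HFD, 1 down with EC359), at summed levels of 28.8 to 38.4, 43 to 45.9 and 36.6 to 46.6 CPM, and Csn1s1 and Wap were at 0 in all libraries.

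Markers of suprabasal and cornified epidermis were present and moved with the regulators: of 14 tested, 10 fell and 2 rose in HFD, and 12 rose with EC359 while 2 did not pass. Their sums were 275.1 to 281.3 CPM in LFD, 154.3 to 161.1 in HFD and 253.2 to 261.1 in HFD+EC359, with none of 15 genes at 0 in a whole group. Krt10, a defining keratin of skin, did not pass in either comparison (52.5, 54.5 and 52.7 mean CPM), Krt1 fell by 0.99 and rose by 0.49, and Dmkn fell by 1.91 and rose by 1.79. Hair follicle markers were near 0, with 7 to 9 of 11 genes at 0 in all libraries of a group and sums of 0.204 to 1.88 CPM; the most abundant were Tchh, S100a3 and Krt73. The part of epidermal or carcinoma cell content in the changes of the 9 regulators was not tested.

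**Figure D4:**
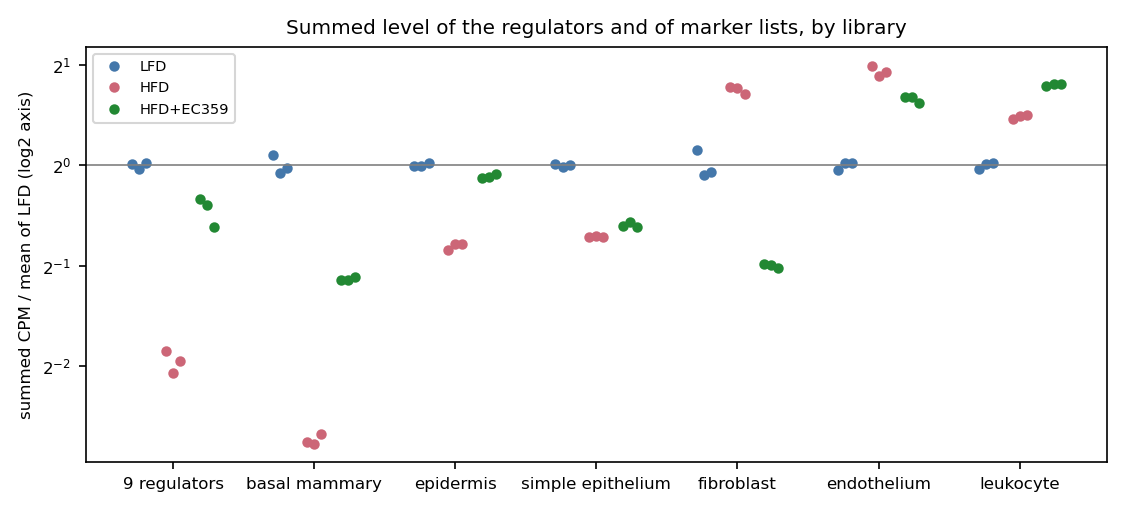
Summed CPM of the 9 regulators and of 6 marker lists in each library, divided by the mean of the LFD libraries (y axis, log2 scale), colored by group. HFD libraries are lowest for the regulators, the basal, epidermal and simple epithelial lists, and higher than LFD for the fibroblast, endothelial and leukocyte lists. The basal sum is led by Krt14, Krt5 and Krt17, while Acta2, Myh11 and Mylk of that list rose in HFD.

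Fibroblast, endothelial and leukocyte markers moved as well. Of all tested genes, 26.0% rose and 25.8% fell in HFD, and 12.7% rose and 13.9% fell with EC359. Of 9 fibroblast markers 9 rose in HFD, and 1 rose and 5 fell with EC359, with sums of 7890 to 9320, 13740 to 14468 and 4146 to 4256 CPM led by Col1a1, Col1a2 and Col3a1. The 5 that fell with EC359 were these collagens, Lum and Postn. Pdgfra rose (log2 0.34, edgeR adjusted p = 1.43e-09), and Pdgfrb, Dcn and Fap did not pass. Against LFD, 5 of the 9 were higher and 3 lower with EC359 (29.2% and 29.1% of all genes). Of 6 endothelial markers 6 rose in HFD and 4 fell with EC359, with sums of 176.8 to 186.1, 337.3 to 362.5 and 281.5 to 292.3 CPM led by Pecam1, Cdh5 and Kdr. Of 8 tested leukocyte markers 5 rose in HFD and 7 rose with EC359, with sums of 854.1 to 893.1, 1204 to 1243 and 1515 to 1538 CPM led by Lyz2, Csf1r and Itgam. Adipocyte markers (6 tested; 3 up in HFD, 1 down with EC359) summed to 19.6 to 24.1, 47.1 to 49.7 and 39.2 to 45.9 CPM, led by Fabp4, Lpl and Cfd. Skeletal muscle markers (8 tested; 3 up and 2 down in HFD, 2 up and 3 down with EC359) summed to 123 to 132.7, 128 to 139.1 and 114.6 to 120.2 CPM, led by Acta1, Myh4 and Myh1. Those muscle markers shared no direction in either comparison. The part of all these cell types in the result was not tested.

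The difference in base composition between groups moved with the diet comparison. With the trend of GC content and length removed in each library, 9 of the 9 regulators still fell in HFD, and 8 passed the methods' threshold, now with Ehf (log2 -1.92) and without Elf3 (log2 -0.84), and 8 rose with EC359, 7 of them past that threshold. Of 13366 genes, 5702 then changed between diets (654 past that threshold) and 3545 with EC359 (454 past it). Against LFD the calls dropped from 7 to 4 of the 9, those of Grhl1, Ovol1, Esrp1 and Esrp2, while 6607 of the 13366 genes passed.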

How the data were processed

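RNA from 9 4T1 tumors, per the series' design text (3 libraries each of LFD, HFD and HFD+EC359) was sequenced as stranded, paired-end mRNA libraries. The deposited values are expected counts per gene, which the authors made with featureCounts 1.5.0-p1 on mm9 gene models. Per the file headers, fragments were counted on the reverse strand, and multi-mapped or overlapping fragments were divided into fractions. Values that were not whole numbers made up 1.19% to 3.55% of the listed genes in a library. The submitters' processing notes name HISAT2 2.1.0, whereas the study's methods name another aligner and another counting tool, so the origin of the counts is taken from the headers. The values were rounded, genes were filtered with filterByExpr, and 1 edgeR 4.0.16 quasi-likelihood model (TMM; R 4.3.3) was fitted to all 9 libraries; genes were counted at an adjusted p under 0.05 and, separately, by the study's threshold. The test was run on simulated data first. DESeq2 1.42.0 was an alternative. Named genes were the 9 regulators, for each list of related genes up to 3 with the largest log2 fold change in each of the diet and EC359 comparisons, the 3 most abundant genes of each marker list and the 3 genes nearest to each regulator by Pearson's r of log2 CPM (prior count 2); others were named after their values were seen, and some genes that the rule would name are not reported here. The members and lists were chosen with earlier results of these data known. Of the listed genes, 22549 had GC content in the mm9 reference. Library replicate numbers did not pair the samples.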

Additional observations from a re-analysis of the deposited data

How the results depend on the processing

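All 9 regulators kept their direction in both comparisons with HFD under each alternative in which they were tested: RLE factors, library totals, other filters, only the 6 libraries compared, thinning to the smallest library, removal of the GC and length trend, DESeq2, a replicate block and leaving out each library. With at least 10 counts asked for in every library, 5 of the 9 genes could be tested. All 5 fell in HFD (5 past the study's threshold), where 6358 of 11980 genes changed (356 past it). With EC359 4 rose (3 past it), where 3140 of the 11980 changed (211 past it). Between HFD+EC359 and LFD 3 differed, as did 7355 of the 11980 genes. With the GC and length trend removed, 4 of the 9 differed between HFD+EC359 and LFD, as did 6607 of 13366 genes. Leaving out each library gave 4 to 6 in that comparison (4 without LFD replicate 1 or HFD+EC359 replicate 3) and 0 to 1 past the study's threshold, the 1 being Ovol1 without LFD replicate 1 (log2 -1.03) or HFD+EC359 replicate 2 (log2 -1.07). The same fits called 7088 to 7736 of all genes in it, with 602 to 742 past the study's threshold. The difference of Trp63 between HFD+EC359 and LFD changed sign with library totals (0.04) and in 3 of the 9 fits that left out a library (0, 0.02 and 0.05, within a range of -0.15 to 0.05). Library totals shifted the median gene by 0.085 in that comparison. Same-numbered libraries did not deviate together (r from -0.03 to 0.017 over 9 pairs), so their numbers were not taken as pairs. With a replicate block 9 regulators fell in HFD, 8 rose with EC359 and 7 differed from LFD. That block gave 6944, 3550 and 7773 of 13366 genes changed in either direction in the same comparisons. Among the 12 other epithelial factors tested, DESeq2 found 4 that rose with EC359 where edgeR found 7 (12.7% of all genes). DESeq2 called 2528 of 13365 genes in either direction in that comparison. The cause of these changes was not tested. Depth limits Ehf, Ovol1 and Grhl3, which had 3 to 9 counts in the HFD libraries, so their fold changes rest on few counts.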

Other observations

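A few genes of the lists had patterns unlike those of most regulators. Krt77, a keratin of sweat ducts and suprabasal skin, had 1.84, 1.25 and 2.46 CPM in LFD, 11.6, 11.1 and 12.3 CPM in HFD and 9.09, 10.4 and 8.79 CPM in HFD+EC359; it rose by 2.66 on the log2 scale between diets (SE 0.225, edgeR adjusted p = 1.33e-11) and did not pass with EC359 (log2 -0.31, adjusted p = 0.106). Flg2, a filaggrin-like protein of cornified epidermis, rose in HFD by 0.56 and again with EC359 by 0.34 (edgeR adjusted p = 0.00226 and 0.0338). Lama3, which encodes the alpha chain of laminin-332, fell by 1.24 in HFD and rose by 1.67 with EC359, ending above LFD by 0.43 on the log2 scale, while Lamb3 had a log2 difference from LFD of -0.05. These genes were chosen after their values were seen.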
